A study of Mus musculus with 29 samples.

Results

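Progression of a cell out of G1 is controlled by the D cyclins, their partner kinases, the retinoblastoma (RB) proteins that the kinases phosphorylate, and inhibitor proteins that hold the kinases back. The 10 genes described here encode these components: the D cyclins Ccnd1, Ccnd2 and Ccnd3, the kinases Cdk4 and Cdk6, the RB family genes Rb1, Rbl1 and Rbl2, and the CDK inhibitors Cdkn1a and Cdkn1b. They were chosen by symbol, matched to the Ensembl identifiers of the deposited counts, and all 10 were present among the 11959 genes of the table.

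A D cyclin bound to CDK4 or CDK6 phosphorylates RB family proteins, which then release E2F transcription factors and permit DNA synthesis. The inhibitor p21, encoded by Cdkn1a, is a classical p53 target, and p27, encoded by Cdkn1b, is high in cells arrested by contact. Confluent 3T3-L1 preadipocytes re-enter the cell cycle after hormonal induction, a step called mitotic clonal expansion, and in these cells the RB family proteins p130 (Rbl2) and p107 (Rbl1) are known to exchange during that step.

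3T3-L1 is an established line of mouse embryo fibroblasts that differentiates into white adipocytes. Confluent cells received 10 µM KDM5-C70 (C70), an inhibitor of the KDM5 family of histone H3 lysine 4 demethylases, or the vehicle DMSO, from day −2 to day 0. At day 0 the agent was removed and preadipocyte medium was replaced by differentiation medium, which gave way to adipocyte medium at day 2, and RNA was sequenced at days 0, 1, 2 and 7. On days 0, 1 and 2 there were 3 vehicle and 4 C70 samples per day, and on day 7 both groups had 4, which makes 29 samples in 8 groups. Every group is the same single line, and the labels of vehicle and C70 samples of a day differ only in the agent. The sources used here do not state whether samples of a group were separate cultures, so P values measure the spread between these samples, which may be technical.

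Total counts per sample ranged from 16320275 to 24037170. Levels are given as CPM, the reads of a gene relative to all reads of its sample, on library sizes scaled by the trimmed mean of M values (TMM). A gene was called when its adjusted P value was under 0.05 and its log2 fold change over 0.322 in size. Vehicle day 7 replicate 1 stood apart from the other vehicle samples of that day, being the highest for 4 of the 10 genes and the lowest for the other 6, and for the 10 genes the C70 difference at day 7 and the vehicle step from day 2 to day 7 are therefore also given without it. The samples are labelled adipocyte, whereas the summed level of 10 adipocyte markers was 131 to 133 CPM in vehicle at day 0 and 16320 to 21490 CPM at day 7, and that of 7 preadipocyte and fibroblast markers was 31680 to 32600 CPM at day 0 and 2151 to 3023 CPM at day 7. The day 0 samples thus carried the markers of preadipocytes. Of the other cell types searched for, Cd68 was the only one of 5 macrophage markers and Des the only one of 3 muscle markers in the table, and none of the 3 endothelial or 3 epithelial markers was in it.

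In vehicle, the course of differentiation moved most of these genes. Between day 0 and day 1, 2 genes rose and 5 fell (7 of 10 called, against 54.1% of all genes tested). Between day 1 and day 2, 3 rose and 3 fell (6 of 10, against 44.3%). From day 2 to day 7, 5 rose and 3 fell (8 of 10, against 53.3%). Between day 0 and day 7, 4 were higher and 3 lower (7 of 10, against 73.5%). Without vehicle day 7 replicate 1, the log2 change from day 2 to day 7 was 1.13 for Ccnd1, −0.26 for Ccnd2, 0.37 for Ccnd3, −0.52 for Cdk4, −1.29 for Cdk6, 0.57 for Rb1, −0.05 for Rbl1, 0.82 for Rbl2, 1.22 for Cdkn1a and 0.01 for Cdkn1b. Of the 8 calls over that step, only that of Ccnd2 was lost. A large share of all genes was called over the same steps, so the vehicle course is described below gene by gene.

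With C70, 2 of the 10 genes were called at day 0, against 8.97% of all genes: Ccnd1 was higher (5.89% of all genes were) and Rbl1 lower (3.09%). At day 1, 4 were called, against 21.4%, with Ccnd1 and Cdkn1a higher (13.6%) and Cdk6 and Rbl1 lower (7.80%). At day 2, 6 were called, against 30.5%, of which Ccnd1 and Cdkn1a were higher (16.9%) and Ccnd2, Cdk6, Rb1 and Rbl1 lower (13.6%), and without vehicle day 7 replicate 1, which enters the shared estimate of the spread and the scaling, 4 were. At day 7, only Ccnd1 was called, against 19.1% of all genes, 14.3% being higher and 4.85% lower, and without vehicle day 7 replicate 1 Ccnd3 was called as well. By the adjusted P value alone, 2, 5, 9 and 5 of the 10 genes passed on days 0, 1, 2 and 7, against 19.8%, 40.7%, 50.7% and 41.1% of all genes. These shares of a list of 10 genes were not tested against the table. The median absolute log2 fold change of the 10 genes was 0.33 at day 2, beside 0.20 over all genes, and 0.13 at day 7, beside 0.16. The vehicle samples of each day serve both as the control of the C70 comparison and in the vehicle course, so these comparisons share samples.

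**Figure D1:**
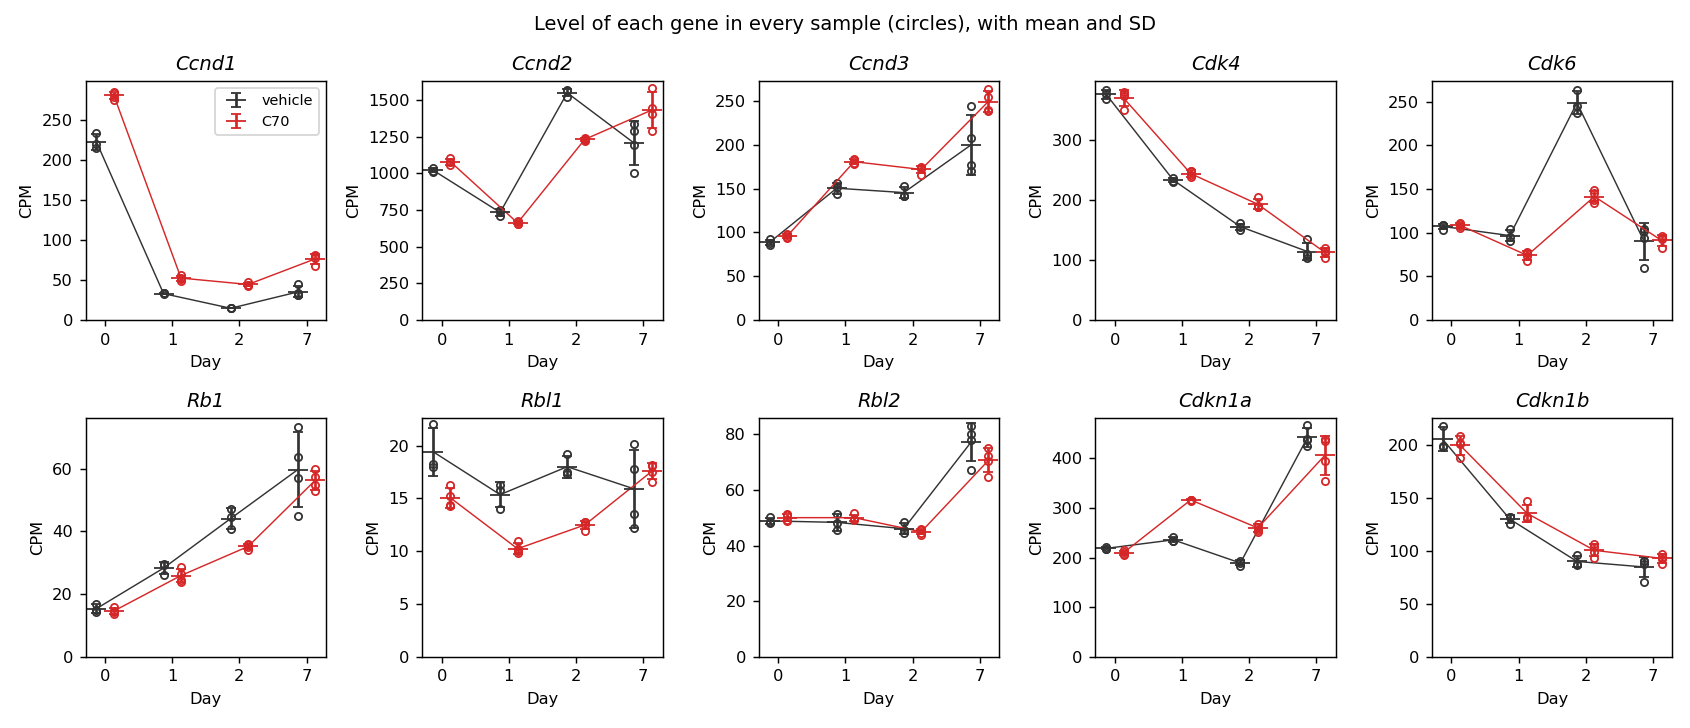
Level of each of the 10 genes in CPM (linear axes from 0) by day, in vehicle (black) and C70 (red). Circles are samples, and bars give the mean and SD of 3 or 4 samples. Ccnd1 fell steeply after day 0 and stayed higher with C70 on every day, Cdk6 peaked at day 2 at 249 CPM in vehicle and 141 CPM with C70, and the scatter of vehicle at day 7 is widened by replicate 1.

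Ccnd1, on chromosome 7 from 144929931 to 144939925 (GRCm38, minus strand), encodes cyclin D1, the D cyclin that responds to growth factors. It was the one gene of the 10 that was called on all 4 days, and it was higher with C70 on each. At day 0 its level was 220.1, 233 and 215 CPM in vehicle replicates 1 to 3, and 285, 279, 275 and 284 CPM in C70 replicates 1 to 4. The groups did not overlap, although the difference was small, with a log2 fold change of 0.33 ± 0.07 (SE, adjusted P = 0.00128). This call was lost without vehicle day 0 replicate 3, when the log2 fold change was 0.31 and thus under the threshold, and after quantile normalization (0.29).

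At day 1, Ccnd1 measured 33.4, 33.3 and 32.6 CPM in vehicle and 56.5, 51.8, 49.1 and 52.6 CPM with C70. At day 2 it measured 14.6, 14.8 and 14.9 CPM in vehicle and 47.9, 42.9, 44.0 and 43.4 CPM with C70. Every C70 sample exceeded every vehicle sample on both days, and the vehicle samples lay close together. On the log2 scale the difference was 0.67 ± 0.08 for day 1 (adjusted P = 1.72e-07) and 1.59 ± 0.09 for day 2 (adjusted P = 7.85e-15), the latter being 3.02-fold. In vehicle, Ccnd1 fell 6.73-fold from day 0 to day 1 and a further 2.24-fold to day 2.

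At day 7, Ccnd1 measured 45.3, 30.9, 30.8 and 33.7 CPM in vehicle and 80.9, 67.6, 77.6 and 80.0 CPM with C70. Again no samples overlapped, and the difference was 2.18-fold (log2 1.13 ± 0.08, adjusted P = 7.14e-13), or 1.27 on the log2 scale without vehicle day 7 replicate 1. The interaction test asks whether the C70 difference itself changed between days. It grew by 0.93 ± 0.13 on the log2 scale between day 1 and day 2 (adjusted P = 2.95e-06) and then fell by 0.47 ± 0.12 between day 2 and day 7 (adjusted P = 0.00353), or by 0.33 without vehicle day 7 replicate 1. The smaller growth between day 0 and day 1, 0.33 ± 0.11 (adjusted P = 0.0327), lost its call in 8 of 29 fits that left out 1 library, namely each of the 3 vehicle day 1 samples, vehicle day 0 replicates 1 and 2, C70 day 0 replicate 3, and C70 day 1 replicates 1 and 4, with adjusted P values of 0.0501 to 0.0801.

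Exons of Ccnd1 share 1100 bases with the antisense gene LTO1. The library kit keeps strand, but whether counting used it was not stated, so reads in such overlaps may be assigned to either gene. LTO1 itself averaged 15.1 CPM in vehicle and 17.5 CPM with C70 at day 2 and was not called (log2 fold change 0.21 ± 0.08, adjusted P = 0.0376).

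Ccnd2, on chromosome 6 from 127125162 to 127152193 (minus strand), encodes cyclin D2 and had the highest count level of the 3 D cyclins in every group. In vehicle it fell 1.39-fold to day 1 and then rose 2.11-fold to day 2. With C70 it differed little at day 0 (log2 0.08 ± 0.06, adjusted P = 0.439) and day 1 (log2 −0.15 ± 0.06, adjusted P = 0.0611). At day 2 it measured 1562, 1566 and 1522 CPM in vehicle and 1244, 1229, 1224 and 1232 CPM with C70. The C70 samples were all lower and varied little, and the difference was 1.26-fold (log2 −0.33 ± 0.06, adjusted P = 4.88e-05). This value lay just past the fold threshold: it was −0.32, and no longer called, without C70 day 1 replicate 1, vehicle day 7 replicate 1 or C70 day 7 replicate 2, −0.32 without the lowest 25% of genes, and −0.23 after quantile normalization.

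At day 7, Ccnd2 measured 1001, 1336, 1293 and 1194 CPM in vehicle and 1449, 1289, 1584 and 1409 CPM with C70. Here C70 samples tended to be higher and the groups overlapped, with a log2 fold change of 0.25 ± 0.06 that was below the fold threshold (adjusted P = 0.000968), and of 0.18 without vehicle day 7 replicate 1. Between day 2 and day 7 the C70 difference in Ccnd2 thus changed sign, by 0.58 ± 0.09 on the log2 scale (adjusted P = 4.08e-06), or 0.50 without that replicate. In vehicle, the fall of 1.29-fold from day 2 to day 7 was no longer called without it (log2 −0.26). The antisense gene Gm43126 overlaps exons of Ccnd2 and averaged 2.68 CPM in vehicle and 1.94 CPM with C70 at day 2 (log2 −0.46 ± 0.21, adjusted P = 0.0684).

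Ccnd3, on chromosome 17 from 47505051 to 47599691 (plus strand), encodes cyclin D3, which is known to rise as cells differentiate. In vehicle it rose 1.70-fold to day 1, stayed at this level at day 2 (log2 −0.05 ± 0.08, adjusted P = 0.597), and rose 1.37-fold to day 7. It was at 144 to 156 CPM in vehicle and 178 to 184 CPM with C70 at day 1, and at 141 to 153 and 166 to 175 CPM at day 2. The C70 samples were thus above all vehicle samples on both days. The difference on the log2 scale was 0.26 ± 0.07 for day 1 (adjusted P = 0.00412) and 0.24 ± 0.07 for day 2 (adjusted P = 0.00637), both under the fold threshold. At day 7 it measured 244, 169.9, 177 and 208 CPM in vehicle and 240.0, 255, 239 and 264 CPM with C70.

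Only vehicle day 7 replicate 1 reached into the C70 range of Ccnd3. The log2 fold change was 0.32 ± 0.07 (adjusted P = 0.000253), just short of the threshold, and 0.44 (adjusted P = 3.99e-09) and called without that replicate. It also passed without C70 day 1 replicate 1, vehicle day 7 replicate 4, or C70 day 7 replicates 1 or 3, with values of 0.32 to 0.34, and with DESeq2, RLE factors, quantile normalization (0.33 each) and without the lowest 25% of genes (0.35). Ccnd3 has an annotated pseudogene, Ccnd3-ps, and overlaps the antisense gene Bysl, so its reads could in part be shared. Bysl was lower with C70 at day 1 (log2 −0.51 ± 0.06, adjusted P = 2.29e-08, called), with values of −0.16 ± 0.05 on day 2 and −0.23 ± 0.05 on day 7 that were not called.

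Levels of different genes can be compared only per length, so CPM was divided by the kilobases of exon of each gene. These lengths join all annotated exons of a gene (4.709 kb for Ccnd1, 9.409 kb for Ccnd2 and 8.775 kb for Ccnd3). They can exceed the transcripts expressed, by an amount that may differ between genes, and no other lengths were tried. Shares and orders of genes per kb therefore hold only on these lengths. On this scale the 3 D cyclins summed to 166 ± 3.61 CPM per kb in vehicle at day 0 (SD, n = 3), 102 ± 2.55 at day 1, 184.5 ± 1.79 at day 2 and 158 ± 10.6 at day 7 (n = 4). With C70 the sum was 185 ± 2.73, 102 ± 1.44, 160.0 ± 0.871 and 197 ± 12.96 CPM per kb on those days (n = 4). On these lengths, cyclin D2 transcripts made up most of the sum in every group, from 62.0% with C70 at day 0 to 89.3% in vehicle at day 2.

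The share of Ccnd1 in the sum was 28.5% ± 0.642 in vehicle and 32.2% ± 0.278 with C70 at day 0, and 6.88% ± 0.115 and 10.9% ± 0.526 at day 1. At day 2 it was 1.70% ± 0.0355 in vehicle and 5.91% ± 0.273 with C70, and at day 7 it was 4.78% ± 1.30 and 8.25% ± 0.459. Shares in C70 samples lay above those of vehicle samples on all 4 days, with the closest approach at day 7, where vehicle reached 6.68% in replicate 1 and C70 began at 7.77%. These shares are a description of the 3 genes and carry no test.

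**Figure D2:**
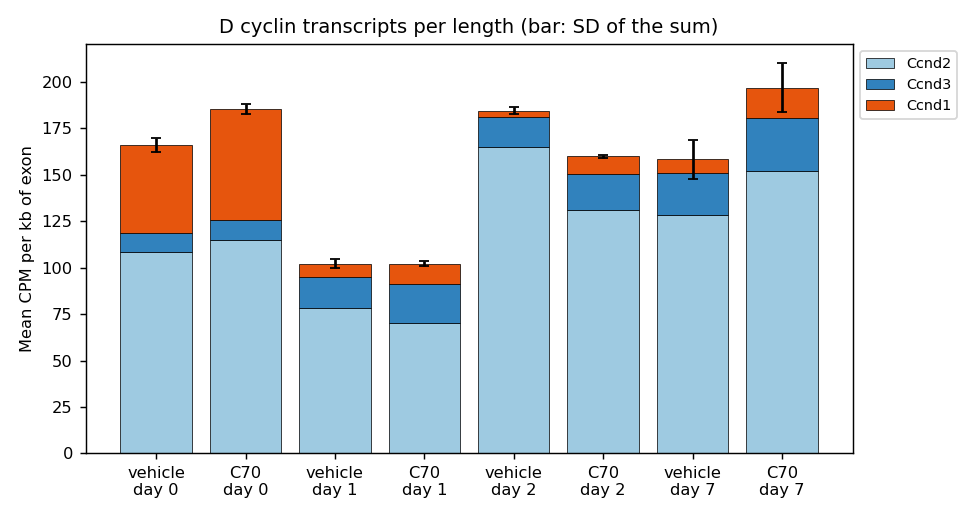
Mean level of the 3 D cyclin genes per kilobase of exon (stacked bars from 0, CPM per kb) in each group, with the SD of their sum over 3 or 4 samples. On these lengths, which join all annotated exons, Ccnd2 dominates throughout. The Ccnd1 segment shrinks from 28.5% of the sum in vehicle at day 0 to 1.70% at day 2, where it is 5.91% with C70.

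Cdk4, on chromosome 10 from 127063534 to 127067920 (plus strand), encodes CDK4, a catalytic partner of the D cyclins. In vehicle it fell at each step, 1.61-fold to day 1, 1.499-fold to day 2 and 1.36-fold to day 7, from 376 ± 7.97 CPM at day 0 to 114 ± 14.1 CPM at day 7. On day 2 the samples stood at 161, 151 and 155 CPM in vehicle and 188, 189, 205 and 189 CPM with C70. The C70 samples were all higher, and C70 day 2 replicate 3 was far above the other 3, but the log2 fold change of 0.31 ± 0.06 (adjusted P = 7.21e-05) stayed just under the fold threshold.

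This value for Cdk4 was called without C70 day 1 replicate 1 (0.33) or vehicle day 2 replicate 1 (0.34), and after quantile normalization (0.34). On the other days the C70 and vehicle levels of Cdk4 differed little, with log2 fold changes of −0.02 ± 0.06 at day 0, 0.07 ± 0.06 at day 1 and −0.02 ± 0.06 at day 7, the last becoming 0.08 without vehicle day 7 replicate 1. The difference shrank between day 2 and day 7 (interaction −0.33 ± 0.08, adjusted P = 0.00289), a call lost without vehicle day 7 replicate 1 (−0.25) and also without vehicle day 2 replicate 2, C70 day 2 replicate 3, or C70 day 7 replicates 1 or 3 (−0.32 to −0.29). This call was also lost with DESeq2 and with RLE factors (both −0.31), with only the groups compared (−0.32) and without the lowest 25% of genes (−0.31). Tspan31, which lies antisense to Cdk4 and shares exon bases with it, had a log2 fold change of 0.12 ± 0.05 at day 2 (adjusted P = 0.0695).

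The RefSeq promoter window of Cdk4 (GRCm38.p6, chr10:127063285-127063584, plus strand) is shown because it holds 4 E boxes. It reads from 250 bases before to 50 bases after the start, with capitals marking each E box, the letters CACGTG, which read the same on both strands.
Cdk4: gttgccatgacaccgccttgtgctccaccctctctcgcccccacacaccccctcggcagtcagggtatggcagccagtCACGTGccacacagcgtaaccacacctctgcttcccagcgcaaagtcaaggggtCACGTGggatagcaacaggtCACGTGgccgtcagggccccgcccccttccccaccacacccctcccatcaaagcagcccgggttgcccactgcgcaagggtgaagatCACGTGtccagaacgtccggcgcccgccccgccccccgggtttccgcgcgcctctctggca
The E boxes begin 172, 118, 98 and 11 bases upstream of the start. At least 1 E box was found in 7.15% of 32851 windows of the same length, and at least 4 in 8 of them (0.0244%). E boxes of this form are known as sites of the MYC and MAX proteins, and a match of letters does not show binding.

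Cdk6, on chromosome 5 from 3341485 to 3531008 (plus strand), encodes CDK6, the other partner of the D cyclins. In vehicle it rose and fell again, at 107 ± 3.05 CPM at day 0, 96.7 ± 6.65 CPM at day 1, 249 ± 13.3 CPM at day 2 and 90.1 ± 20.8 CPM at day 7, a 2.57-fold rise and then a 2.76-fold fall. With C70 this peak was reduced. On day 2 the samples stood at 245, 263 and 237 CPM in vehicle and 145, 137, 149 and 134 CPM with C70.

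The day 2 samples of Cdk6 were thus widely separated, and the level was 1.76-fold lower with C70 (log2 −0.81 ± 0.10, adjusted P = 3.86e-08). At day 1, Cdk6 measured 104, 95.1 and 90.9 CPM in vehicle and 78.4, 76.5, 67.5 and 73.6 CPM with C70, again without overlap (log2 −0.38 ± 0.10, adjusted P = 0.00344). At day 0 the groups overlapped, with a log2 fold change of 0.02 ± 0.10 (adjusted P = 0.943).

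At day 7, Cdk6 measured 59.6, 104, 102 and 94.2 CPM in vehicle and 95.9, 82.0, 94.5 and 92.3 CPM with C70. Vehicle day 7 replicate 1 was below every C70 sample, and the log2 fold change was 0.02 ± 0.10 with it and −0.13 without it (adjusted P = 0.0532). The C70 difference in Cdk6 moved by 0.83 ± 0.14 between day 2 and day 7 (adjusted P = 2.41e-05), or 0.67 without that replicate. Between day 0 and day 1 it moved by −0.40 ± 0.15 (adjusted P = 0.0495), a call kept in only 5 of 29 fits that left out 1 library (adjusted P up to 0.122 without vehicle day 1 replicate 1), and lost with median-ratio scaling (0.0514), without the lowest 25% of genes (0.0642) and with the replicate number as a block (0.0644). Between day 1 and day 2 it moved by −0.43 ± 0.14 (adjusted P = 0.0323), lost without vehicle day 1 replicates 2 or 3, C70 day 1 replicates 1 or 2, vehicle day 2 replicate 2, or C70 day 2 replicates 2 or 4 (0.0537 to 0.0895).

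The window of Cdk6 (chr5:3343643-3343942, plus strand) is printed beside that of Rbl1 below, since both hold the letters TTTNNCGC. These were searched on both strands, with any base allowed at N, and are marked in capitals. They are a loose search form of the E2F site, so a match need not be an E2F site.
Cdk6: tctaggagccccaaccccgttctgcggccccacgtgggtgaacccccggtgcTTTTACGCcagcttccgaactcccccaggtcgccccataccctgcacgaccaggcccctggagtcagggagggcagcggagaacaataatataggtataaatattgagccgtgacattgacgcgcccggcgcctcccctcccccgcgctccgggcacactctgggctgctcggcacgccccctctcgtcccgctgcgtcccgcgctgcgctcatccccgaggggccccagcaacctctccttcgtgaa
Rbl1: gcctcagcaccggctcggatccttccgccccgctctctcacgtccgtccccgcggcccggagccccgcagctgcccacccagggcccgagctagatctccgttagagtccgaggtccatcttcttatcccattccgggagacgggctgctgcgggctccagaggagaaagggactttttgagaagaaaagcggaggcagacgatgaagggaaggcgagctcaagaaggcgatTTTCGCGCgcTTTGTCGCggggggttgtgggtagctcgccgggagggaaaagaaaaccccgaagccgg
In Cdk6 the match TTTTACGC begins 198 bases upstream of the start. In Rbl1 (chr2:157204485-157204784, minus strand) TTTCGCGC and TTTGTCGC begin 18 and 8 bases upstream and do not overlap. Of all windows, 5.17% held at least 1 such match and 0.326% at least 2. These are descriptions of letters in a RefSeq window and not sites of binding. Whether they bear on the C70 differences of Cdk6 and Rbl1 was not tested. RefSeq windows were at hand for 7 of the 10 genes, 9 windows in all, and neither Ccnd1, Ccnd2 nor Rb1 was among them.

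Rb1, on chromosome 14 from 73183673 to 73325822 (minus strand), encodes pRB, which represses E2F targets. In vehicle it rose at every step, 1.84-fold, 1.56-fold and 1.35-fold, from 15.4 ± 1.38 CPM at day 0 to 59.7 ± 11.9 CPM at day 7. At day 2, Rb1 measured 40.7, 47.1 and 44.6 CPM in vehicle and 35.7, 35.9, 35.2 and 34.1 CPM with C70. The C70 samples were all lower (log2 −0.33 ± 0.10, adjusted P = 0.00585), but by barely more than the fold threshold.

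This call of Rb1 was lost in 6 of 29 fits, without vehicle day 2 replicates 2 or 3, C70 day 2 replicate 4, C70 day 1 replicate 1, vehicle day 7 replicate 1 or C70 day 7 replicate 2, with values of −0.32 to −0.28. It was also lost after quantile normalization (−0.31), with only the groups compared (−0.32) and without the lowest 25% of genes (−0.32). On days 0, 1 and 7 the log2 fold change of Rb1 was −0.07 ± 0.12, −0.13 ± 0.10 and −0.09 ± 0.09, the last becoming −0.19 without vehicle day 7 replicate 1. The antisense neighbours that share exon bases with Rb1 had log2 fold changes at day 2 of −0.34 ± 0.05 for Rcbtb2 (called) and −0.15 ± 0.10 for Lpar6. How far reads were shared with them was not tested.

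Rbl1, on chromosome 2 from 157145893 to 157204534 (minus strand), encodes p107 and is itself a known target of E2F. It had the lowest or next to lowest level per length of the 10 genes in every group. At day 0, Rbl1 measured 17.97, 22.03 and 18.3 CPM in vehicle and 14.3, 16.3, 15.2 and 14.4 CPM with C70. The groups did not overlap (log2 −0.37 ± 0.10, adjusted P = 0.0121), but without vehicle day 0 replicate 2, the highest sample, the value was −0.27 and was not called (adjusted P = 0.111).

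At day 1, Rbl1 measured 15.8, 16.3 and 14.04 CPM in vehicle and 10.9, 9.99, 9.79 and 10.2 CPM with C70. At day 2 it measured 17.3, 19.2 and 17.5 CPM in vehicle and 12.8, 12.8, 11.9 and 12.45 CPM with C70. On both days every C70 sample was below every vehicle sample. The level was 1.5-fold lower with C70 at day 1 (log2 −0.58 ± 0.11, adjusted P = 0.00011) and 1.44-fold lower at day 2 (log2 −0.53 ± 0.11, adjusted P = 0.000145), and both calls held in all 29 fits that left out 1 library.

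At day 7, Rbl1 measured 12.2, 17.8, 20.1 and 13.5 CPM in vehicle and 17.5, 18.2, 18.1 and 16.5 CPM with C70, and the groups overlapped (log2 0.14 ± 0.10, adjusted P = 0.296, and 0.04 without vehicle day 7 replicate 1). From day 2 to day 7 the C70 difference moved by 0.67 ± 0.15 (adjusted P = 0.000878), or 0.56 without that replicate. In vehicle, Rbl1 fell 1.26-fold from day 0 to day 1 (adjusted P = 0.0089), which was lost without vehicle day 0 replicate 2 or vehicle day 1 replicate 3 (adjusted P = 0.0795 and 0.0537) and after quantile normalization (log2 −0.25).

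Rbl2, on chromosome 8 from 91070057 to 91123844 (plus strand), encodes p130, the RB family protein of resting cells. It was flat in vehicle through day 2, at 48.9 ± 1.16, 48.4 ± 2.98 and 46.1 ± 2.06 CPM, and rose 1.67-fold to 77.1 ± 6.84 CPM at day 7 (adjusted P = 8.03e-13). It was the gene of the RB family with the smallest C70 differences through day 2. The log2 fold change with C70 was 0.03 ± 0.06 at day 0, 0.05 ± 0.06 at day 1 and −0.04 ± 0.06 at day 2, with 95% intervals from −0.15 to 0.16 over the 3 days.

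At day 7, Rbl2 measured 67.3, 78.1, 83.0 and 80.1 CPM in vehicle and 70.4, 72.1, 64.8 and 75.2 CPM with C70. The C70 samples were on the low side but overlapped with vehicle day 7 replicate 1, and the log2 fold change was −0.13 ± 0.05 (adjusted P = 0.0476), or −0.18 without that replicate. At days 1 and 2 the p107 gene was thus called lower and the p130 gene was not, and the difference between the 2 genes was not tested. Aktip, which overlaps Rbl2 on the other strand, was lower with C70 at day 2 (log2 −0.34 ± 0.06, called).

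Cdkn1a, on chromosome 17 from 29090976 to 29100727 (plus strand), encodes p21. In vehicle it was at 218 ± 2.13 CPM at day 0, 236 ± 5.26 CPM at day 1, 189 ± 5.07 CPM at day 2 and 442 ± 18.3 CPM at day 7, a 2.34-fold rise over the last step. At day 1 it measured 242, 233 and 233 CPM in vehicle and 317, 316, 317 and 315 CPM with C70. On day 2 its samples stood at 194, 184 and 189 CPM in vehicle and 262, 251, 256 and 269 CPM with C70.

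The C70 samples of Cdkn1a were all higher on both days and lay close together. The difference was 1.34-fold at day 1 (log2 0.42 ± 0.05, adjusted P = 6.48e-08) and 1.37-fold at day 2 (log2 0.46 ± 0.05, adjusted P = 7.9e-09), and it was called in all 29 fits that left out 1 library. At day 0, the last day of treatment, Cdkn1a was at 217 to 221 CPM in vehicle and 205 to 214 CPM with C70. There the C70 samples were slightly lower, with a log2 fold change of −0.06 ± 0.05 (adjusted P = 0.482), and the difference between days 0 and 1 was itself called (interaction 0.48 ± 0.07, adjusted P = 9.79e-06).

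At day 7, Cdkn1a measured 467, 424, 436 and 440 CPM in vehicle and 395, 435, 439 and 355 CPM with C70. The groups overlapped and C70 was on the low side (log2 −0.12 ± 0.05, adjusted P = 0.0354, and −0.09 without vehicle day 7 replicate 1), so that the C70 difference fell by 0.58 ± 0.07 from day 2 to day 7 (adjusted P = 1.19e-07), or by 0.56 without that replicate. The more upstream of the 2 RefSeq windows of Cdkn1a (chr17:29090729-29091028, plus strand) is shown, as other p53 targets are described below. Capitals mark letters that match the p53 response element, which is made of 2 half-sites without a spacer. The match, with 1 mismatch allowed, begins 51 bases upstream of the transcript start of this window. The other window (chr17:29093519-29093818, plus strand) held no such match.
Cdkn1a: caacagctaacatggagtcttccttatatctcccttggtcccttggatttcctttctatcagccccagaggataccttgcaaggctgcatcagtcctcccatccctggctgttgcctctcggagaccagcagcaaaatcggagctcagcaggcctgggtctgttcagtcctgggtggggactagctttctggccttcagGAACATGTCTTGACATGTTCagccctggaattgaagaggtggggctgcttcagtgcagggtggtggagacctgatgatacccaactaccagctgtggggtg
Such a match was found in 18 of 32851 windows (0.0548%), and a match of letters does not show binding.

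Cdkn1b, on chromosome 6 from 134920401 to 134925513 (plus strand), encodes p27. In vehicle it fell 1.58-fold to day 1 and 1.45-fold to day 2, from 205 ± 11.4 CPM at day 0 to 90.0 ± 4.93 CPM at day 2, and was at 84.7 ± 9.53 CPM at day 7. At day 2, Cdkn1b measured 87.4, 86.9 and 95.7 CPM in vehicle and 106, 103, 98.7 and 93.7 CPM with C70, with overlap (log2 0.16 ± 0.07, adjusted P = 0.0461, under the fold threshold). The log2 fold change was −0.04 ± 0.06 at day 0, 0.06 ± 0.07 at day 1 and 0.13 ± 0.06 at day 7, or 0.06 at day 7 without vehicle day 7 replicate 1. The 2 inhibitor genes thus followed different courses in vehicle, Cdkn1a being highest at day 7 and Cdkn1b at day 0.

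**Figure D3:**
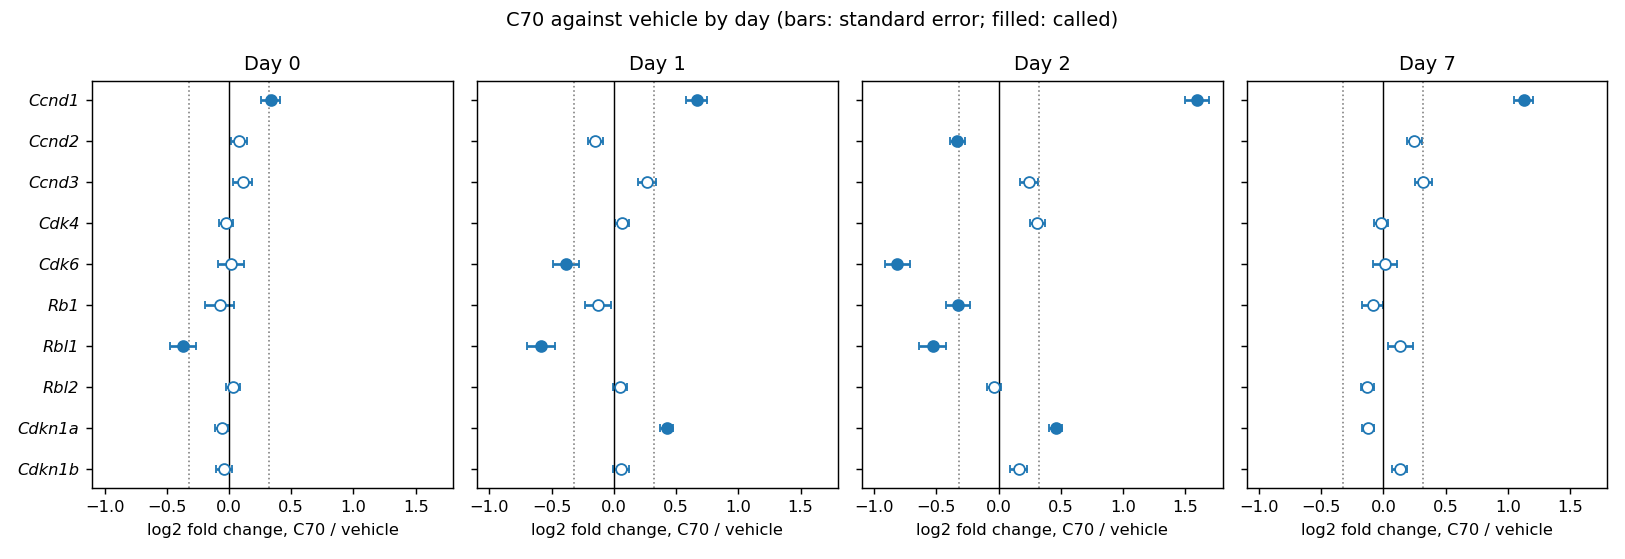
Log2 fold change of C70 against vehicle for each gene by day (x axis, points with standard error), filled where called. The dotted lines mark the threshold of 0.322. Ccnd1 lies to the right on all 4 days, reaching 1.59 at day 2, while Cdk6 and Rbl1 lie to the left at days 1 and 2 and return to near 0 at day 7.

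The interaction tests called more of the 10 genes between day 2 and day 7 than between the earlier days. From day 0 to day 1, 3 were called (Ccnd1, Cdk6 and Cdkn1a, against 13.9% of all genes), from day 1 to day 2, 2 (Ccnd1 and Cdk6, against 13.8%), and from day 2 to day 7, 6 (Ccnd1, Ccnd2, Cdk4, Cdk6, Rbl1 and Cdkn1a, against 20.9%). In each of the 6 genes, the difference at day 7 was closer to 0 than at day 2. Ccnd1 kept its sign, and the values of the other 5 at day 7 were not called. Those of Ccnd2 and Cdkn1a had the other sign with and without vehicle day 7 replicate 1. That of Rbl1 was 0.14 with it and 0.04 without it, and so lay near 0, as did those of Cdk4 and Cdk6. Those of Cdk4 and Cdk6 had the sign of day 2 without that replicate (0.08 and −0.13).

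The order of the genes per kilobase depends on the exon lengths used, which can exceed the transcripts expressed. On these lengths, Cdk4 and Ccnd2 had the highest levels in vehicle at day 0, at 116 ± 2.45 and 109 ± 1.38 CPM per kb, followed by Cdkn1a at 61.5 ± 0.599. Ccnd1 (47.3 ± 2.04) and Cdkn1b (45.05 ± 2.49) overlapped in that group, and the others lay at or below 10.1 CPM per kb. By day 2 in vehicle, Ccnd2 stood at 165 ± 2.58 CPM per kb and Ccnd1 had dropped to 3.14 ± 0.0389, where it overlapped with Rbl1 (3.00 ± 0.173). With C70 at day 1, Cdkn1a led the order at 88.9 ± 0.275 CPM per kb, above Cdk4 at 75.1 ± 1.61 and Ccnd2 at 70.4 ± 1.04, whereas in vehicle Ccnd2 (78.0 ± 2.30) was above Cdk4 (71.8 ± 1.03) and Cdkn1a (66.3 ± 1.48). At day 7, Ccnd2 and Cdkn1a overlapped at the top in vehicle (128 ± 15.8 and 124 ± 5.15 CPM per kb).

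Across the 29 samples, the levels of Cdk4 and Rb1 mirrored each other on the log2 CPM scale (Pearson r = −0.985), and Cdk4 and Cdkn1b moved together (r = 0.926). The genes outside the 10 that were most like Ccnd1 were Cnn2, an actin-binding calponin, and Ccn4, a matricellular protein (both r = 0.984). For Cdk4 they were Pld3 and Ctsa, lysosomal proteins (0.993 and 0.99), and for Rb1 they were Lpin1, a phosphatidate phosphatase, and Ywhag, a 14-3-3 protein (0.989 and 0.987). For Ccnd2 they were Nln and Met (0.956 and 0.947), for Ccnd3 Acaa2 and Map3k6 (0.974 and 0.973), and for Cdk6 Memo1 and Ctif (0.907 and 0.904). For Rbl1 they were Fam20b and Inpp5b (0.847 and 0.809), for Rbl2 Hbp1 and Elovl5 (0.974 and 0.965), for Cdkn1a Plekhg5 and Oplah (0.959 and 0.955), and for Cdkn1b Sppl2a and Palld (0.985 and 0.981). These correlations are descriptions: the points are 8 groups of samples that share day and treatment, and are not independent.

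Genes around this core were described by 7 lists. Of 18 E2F target genes, mostly of DNA replication and nucleotide synthesis, C70 samples had lower levels of 11 on day 1 and of 12 on day 2, against 7.80% and 13.6% of all genes that were lower. The list's median on the log2 scale was −0.40 for day 1 and −0.50 for day 2, beside −0.006 and −0.0036 over all genes. In vehicle itself, 10 of these genes rose and 1 fell from day 1 to day 2, where 22.3% of all genes rose, and all 18 fell from day 2 to day 7, where 26.7% of all genes fell, with a median of −2.22 on the log2 scale. The genes of this list with the largest called change with C70 at day 2 were Gins1, a subunit of the replicative helicase, at 5.77 ± 0.979 CPM in vehicle and 3.11 ± 0.428 CPM with C70 (log2 −0.89 ± 0.14, adjusted P = 3.76e-06), and Cdc6, which licenses origins, at 10.7 ± 1.15 and 5.96 ± 1.19 CPM (log2 −0.84 ± 0.16, adjusted P = 5.7e-05).

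Of the cyclin E and CDK2 arm, which acts after the D cyclins, 3 of 8 genes were lower on each of these days, beside the same 7.80% and 13.6% of all genes. Ccna2, cyclin A2, was at 51.6 ± 1.57 CPM in vehicle and 29.3 ± 1.87 CPM with C70 at day 2 (log2 −0.82 ± 0.10, adjusted P = 3.11e-08). Ccne2, cyclin E2, was at 25.4 ± 1.15 and 15.8 ± 2.00 CPM (log2 −0.68 ± 0.09, adjusted P = 8.08e-08). Of 9 measured E2F and DP genes, the 2 called at day 1 and the 2 called at day 2 were lower, namely the atypical E2F repressors E2f7 (log2 −0.65 ± 0.17 at day 2) and E2f8 (−0.36 ± 0.11). E2f7 was not called at day 1 without vehicle day 1 replicate 2, nor E2f8 at day 2 without C70 day 2 replicate 1, which leaves 1 call on that day in either case. Of 8 MuvB and DREAM genes, whose products join with the RB family proteins to repress cell cycle genes or with activators to induce them, 4 were lower at day 1 and 4 at day 2, led at day 2 by Mybl2 (log2 −0.77 ± 0.16) and Foxm1 (−0.69 ± 0.08), which are activators.

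Genes of other CDK inhibitors moved in both directions. Of the 4 measured, 2 were higher and 2 lower at day 2, against 16.9% and 13.6% of all genes. Cdkn2b, encoding p15, which binds CDK4 and CDK6, was at 20.3 ± 2.17 CPM in vehicle and 38.2 ± 2.09 CPM with C70 (log2 0.92 ± 0.09, adjusted P = 5.14e-10). It had fallen since day 0 with and without C70, from 102 CPM in vehicle and 120 CPM with C70. Cdkn2d, encoding p19 of the same family, was at 10.7 ± 0.08 CPM in vehicle and 6.86 ± 0.923 CPM with C70 at day 2 (log2 −0.64 ± 0.11, adjusted P = 1.51e-05). Cdkn1c and Cdkn3 were not analysed here.

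Among 14 genes for the turnover of D cyclins, p21 and p27, 1 was higher at each of days 0, 1 and 2, and 3 were lower at day 1 and 1 at day 2. Of all genes, 5.89%, 13.6% and 16.9% were higher on those days, and 7.80% and 13.6% lower on days 1 and 2. Fbxo31, an F-box protein known to direct cyclin D1 to degradation, was higher with C70 than in vehicle on days 0, 1 and 2. It was at 5.23 ± 0.505 against 2.25 ± 0.179 CPM at day 0, 8.47 ± 0.725 against 2.22 ± 0.286 CPM at day 1 and 9.84 ± 0.563 against 6.51 ± 0.327 CPM at day 2 (log2 1.22 ± 0.12, 1.93 ± 0.12 and 0.59 ± 0.09). At day 7, Fbxo31 was on the low side with C70, at 71.4 ± 4.06 CPM in vehicle and 60.1 ± 4.40 CPM with C70. That difference was under the fold threshold (log2 −0.25 ± 0.06, adjusted P = 0.000682). The change of the C70 difference from day 2 to day 7 was called (interaction −0.84 ± 0.11, adjusted P = 4.31e-07). Dtl, part of a ubiquitin ligase that targets p21, was at 25.5 ± 0.553 CPM in vehicle and 16.95 ± 1.33 CPM with C70 at day 2 (log2 −0.59 ± 0.09).

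Of p53 and its target genes, 18 of 21 were in the table, and 8 were higher with C70 at day 1 and 8 at day 2, against 13.6% and 16.9% of all genes that were higher. Eda2r, a receptor of the TNF family, rose from 9.67 ± 0.683 CPM in vehicle to 23.2 ± 2.32 CPM with C70 at day 2 (log2 1.27 ± 0.10, adjusted P = 4.03e-12), and Fas, the death receptor, from 3.93 ± 0.336 to 7.22 ± 0.423 CPM (log2 0.87 ± 0.14, adjusted P = 6.05e-06). With C70 at day 7, 4 genes of the list were higher and 3 lower, and without vehicle day 7 replicate 1, 5 and 3, beside 14.3% and 4.85% of all genes with it. The lower count was 1 with DESeq2 and without vehicle day 7 replicate 2 or C70 day 7 replicates 2 or 3. The lists were chosen with results of these data known, so their counts are a description.

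**Figure D4:**
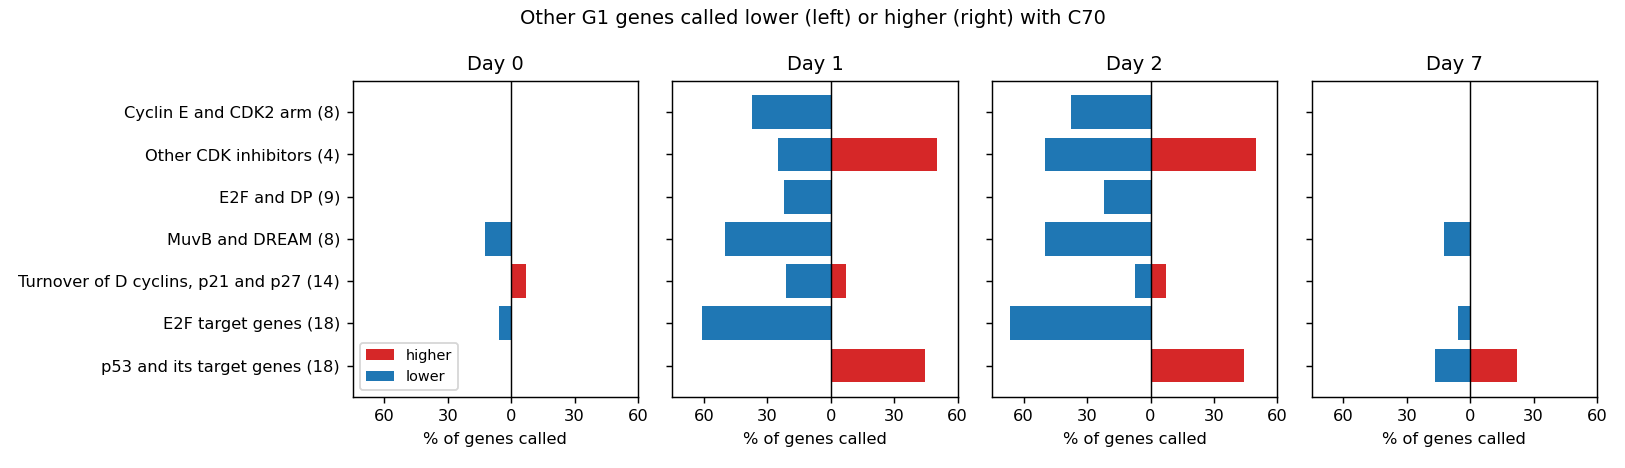
Share of the genes of each list (number measured in brackets) that were called lower (blue, to the left) or higher (red, to the right) with C70 by day, in percent. At days 1 and 2, E2F target genes lie to the left (11 and 12 of 18) and p53 target genes to the right (8 and 8 of 18).

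Markers of differentiation moved with these results. The summed adipocyte markers were at 108 to 109 CPM with C70 and 131 to 133 CPM in vehicle at day 0, and at 985 to 994 and 1482 to 1735 CPM on day 1, while the ranges of the preadipocyte and fibroblast markers overlapped on both days. At day 2 the summed adipocyte markers were at 7609 to 8805 CPM with C70 and 13990 to 14650 CPM in vehicle, and the preadipocyte and fibroblast markers at 4942 to 5514 and 3404 to 3575 CPM. At day 7 the adipocyte markers overlapped, at 17950 to 20120 CPM with C70 and 16320 to 21490 CPM in vehicle, while the preadipocyte markers were at 5163 to 6252 and 2151 to 3023 CPM. Cd68, the macrophage marker in the table, was at 18.7 to 19.8 CPM with C70 and 1.13 to 1.67 CPM in vehicle at day 0, at 13.6 to 15.1 and 1.74 to 2.01 CPM on day 1, and at 6.35 to 6.94 and 1.33 to 1.75 CPM on day 2, and the groups overlapped on day 7. Des, the muscle marker in the table, was at 8.69 to 10.0 CPM with C70 and 4.18 to 5.61 CPM in vehicle at day 0, at 5.45 to 7.24 and 1.83 to 2.58 CPM on day 1, at 4.76 to 5.39 and 3.48 to 3.64 CPM on day 2, and at 35.3 to 43.6 and 40.6 to 50.9 CPM on day 7. Only its day 7 groups overlapped. Their part in the differences of the 10 genes was not tested, and in these bulk samples fewer cells of a type and less RNA per cell cannot be told apart.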

How the data were processed

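Strand-specific mRNA-seq libraries of 29 samples of 3T3-L1 cells were analysed. The deposited table holds counts of reads per gene, which the authors made from alignments with STAR 2.7.2a and analysed in edgeR 3.26.8 per their processing notes. Although named as normalized, its values are whole numbers with totals of 16320275 to 24037170 per sample, and they were treated as raw counts. The counting program, the filter behind its 11959 genes and the use of strand are not given in the sources used here. Ensembl identifiers were matched to symbols and exon lengths in GENCODE M21 (GRCm38), which named 11953 of them. Promoter windows came from RefSeq (GRCm38.p6).

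All 8 groups were fitted together in edgeR 4.0.16 (R 4.3.3) with TMM scaling (factors 0.898 to 1.08) and the quasi-likelihood test, and P values were adjusted over all genes by the Benjamini-Hochberg method. Calls required an adjusted P value below 0.05 together with a log2 fold change over 0.322 in size. Changes of the C70 difference between days were tested as interactions. Standard errors were derived from the fitted log2 fold change and its test, and intervals are at 95%. All 10 members were named, with the 2 genes of each list with the largest called change at day 2 and the 2 nearest genes by correlation of log2 CPM. The members and lists were chosen with earlier results of these data known.

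The fit was tested on simulated data: of 200 genes changed 2-fold between C70 and vehicle at day 2, 195 (97.5%) were recovered, with 8 other calls among 11959 genes. In the interaction tests of these genes, 186 (93.0%) were recovered between days 1 and 2 and 192 (96.0%) between days 2 and 7, with 8 and 4 other calls. The simulation changed genes in the C70 day 2 group only and otherwise gave each gene the same mean in all groups. It held no outlying library and no smaller fold change, so it cannot show how reliable calls near the threshold are. Alternatives were DESeq2 1.42.0, median-ratio (RLE) factors, limma 3.58.1 after quantile normalization, library totals without scaling, removal of the lowest 25% of genes, only the groups compared, a replicate block, other thresholds, and leaving out each library.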

Additional observations from a re-analysis of the deposited data

Results flagged for a closer look

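Cdk4 was at 205.2 CPM in C70 day 2 replicate 3, while the other 3 samples of that group lay at 188 to 189 CPM. Cdkn1b was at 147.4 CPM in C70 day 1 replicate 1, against 131 to 132 CPM in the other 3. Cdkn1b was at 70.65 CPM in vehicle day 7 replicate 1, against 87.2 to 90.6 CPM in the other 3. In each case 1 sample lay far from the rest by Dixon's test, and 3 of 50 groups of 4 samples were so marked where chance gives 2.5.

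The C70 difference itself changed between days, by an interaction test, in 6 genes. For Ccnd1 it rose by 0.331 from day 0 to day 1 and by 0.928 from day 1 to day 2, and changed by −0.468 from day 2 to day 7 on the log2 scale. For Cdk6 it changed by −0.401, −0.43 and 0.83 over these steps. For Cdkn1a it changed by 0.482 from day 0 to day 1 and by −0.58 from day 2 to day 7. From day 2 to day 7 it also changed by 0.58 for Ccnd2, by 0.665 for Rbl1 and by −0.329 for Cdk4. Not all of these calls held in the 29 fits that left out 1 library. From day 0 to day 1, that of Cdk6 held in 5 and that of Ccnd1 in 21. That of Cdk6 from day 1 to day 2 held in 22, and that of Cdk4 in 24. The call of Cdk4, its only one, was also lost with DESeq2 and with RLE factors.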

How the results depend on the processing

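Under the alternatives run, no value of the 10 genes that was called changed direction. A fold change threshold of 1.5 left 0 of the 10 genes with edgeR at day 0 (2 at an unadjusted P value under 0.05, and 2 with DESeq2 at the original threshold), 1 at day 1, 2 at day 2, 4 for vehicle day 7 against day 2, and 0, 1 and 2 for the 3 interactions in order of days (DESeq2 called 3 for the first at the original threshold). Quantile normalization gave 1 at day 0. At day 7, the adjusted P value alone gave 5, and RLE factors, removal of the lowest 25% of genes, quantile normalization and DESeq2 gave 2 each. Leaving out each library gave 1 to 2 genes at day 0, 4 to 4 at day 1, 4 to 7 at day 2 and 1 to 2 at day 7. In the vehicle course it gave 6 to 7 for day 1 against day 0, 6 to 7 for day 2 against day 1, 7 to 8 for day 7 against day 2 and 7 to 9 for day 7 against day 0, and for the interactions 1 to 3, 1 to 2 and 5 to 7. Replicate numbers did not pair the samples: deviations of same-numbered samples correlated at −0.496 to 0.516, and 4 of 13 pairs matched their own number best. With the replicate block, 2, 4, 6 and 1 genes were called with C70 on the 4 days, 7, 6, 8 and 7 in the vehicle course, and 2, 2 and 6 in the interactions. Without TMM scaling, 35 of 80 mean levels moved by more than their SD. Counts of samples within a group differed by 2.65 to 46.7 times the counting variance, so precision is set by the spread between samples. Pairs that held vehicle day 7 replicate 1 gave 39.8 to 46.7, and the highest pair without it gave 13.9. The calls of Ccnd2 and Rb1 at day 2 lay too near the threshold to hold in every fit.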
